A study of Homo sapiens with 37 samples.

Results

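The mRNAs described are those of 10 enzymes that work in the cytosol on the path from glucose phosphate to pyruvate and lactate: GPI, ALDOA, TPI1, GAPDH, PGK1, PGAM1, ENO1, PKM, LDHA and LDHB. They were chosen by name through their Ensembl IDs and make up 10 of the 60483 IDs in each of the study's count tables. All 10 passed the filter on low counts in both tables, which left 12427 IDs in the table of unstressed (naive) cells and 16678 in the table of stressed cells.

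Glycolysis splits a phosphorylated hexose into smaller sugar phosphates and oxidises them to pyruvate, with a net gain of ATP and NADH. Lactate dehydrogenase turns pyruvate into lactate and restores the NAD+ that the path needs. Fast-growing cell lines usually carry these mRNAs at high levels, and free cytosolic ribosomes translate them. GAPDH is widely used as a reference mRNA for cytosol.

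The study measured where RNA lies in the cell by APEX-Seq, in which a peroxidase (APEX) fused to a bait protein attaches biotin-phenol to RNA near it. Labelling in HEK293T, an established human cell line from embryonic kidney, used biotin-phenol at 500 µM over 30 min and hydrogen peroxide at 1 mM over 1 min. A pulldown is the RNA caught on streptavidin beads, and an input is the RNA before that step. The naive cells carried 1 of 5 constructs, with 2 inputs and 2 pulldowns each, 20 libraries in all. These were APEX-CBX1 (a heterochromatin protein of the nucleus), C1-APEX (C1 is in common use an anchor to the membrane of the endoplasmic reticulum, which the labels do not state), APEX-GFP (no bait), APEX-eIF4E (the protein that binds the mRNA cap) and APEX-eIF4A (the helicase of the same initiation complex). The other 17 libraries all came from cells with APEX-eIF4A: T0, T20 under heat shock, hippuristanol (an inhibitor of eIF4A) and DMSO (its solvent), with 2 inputs and 2 pulldowns each except for 1 DMSO input, and a single input and pulldown at T4. No unit of T is given in the labels, and neither are the promoter of each transgene, the number of clones or whether replicates were separate cultures. The p-values therefore speak only for the spread among these libraries, part of which may be technical.

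Positions are those of the RefSeq annotation of GRCh38.p14. GPI (ENSG00000105220.13, chromosome 19, 34359718 to 34402413) isomerises glucose 6-phosphate to fructose 6-phosphate. ALDOA (ENSG00000149925.15, chromosome 16, 30064279 to 30070420) is the aldolase that splits the sugar, and TPI1 (ENSG00000111669.13, chromosome 12, 6867420 to 6870948) interconverts its products. GAPDH (ENSG00000111640.13, chromosome 12, 6534517 to 6538371) catalyses the oxidation step. PGK1 (ENSG00000102144.12, chromosome X, 78104248 to 78129295) makes ATP from its product. PGAM1 (ENSG00000171314.8, chromosome 10, 97426191 to 97433444) moves the phosphate, and ENO1 (ENSG00000074800.12, chromosome 1, 8861000 to 8878686) removes water. PKM (ENSG00000067225.16, chromosome 15, 72199029 to 72231591) is the pyruvate kinase that ends the path and makes ATP again. LDHA (ENSG00000134333.12, chromosome 11, 18394563 to 18408425) and LDHB (ENSG00000111716.11, chromosome 12, 21635342 to 21657842) are the subunits of lactate dehydrogenase. RefSeq names 65 pseudogenes after GAPDH, 13 after PGAM1, 6 after LDHA, 5 after PKM and 4 each after ENO1 and TPI1. LDHB has 3, PGK1 and ALDOA 2 each, and GPI 0. How reads that match several genes were counted is not given in the sources used here, so the level of each mRNA with such copies is uncertain.

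The promoters of GAPDH and PGK1 are shown because GAPDH had the lowest pulldown over input among the 10 by mean rank and PGK1 the largest difference after heat shock. Each is the 250 bases before a RefSeq start site, on the plus strand of GRCh38.p14, from the RefSeq promoter table, at chr12:6535014-6535263 and chrX:78103998-78104247. The GAPDH window lies inside the annotated span of the gene, before a start downstream of the first. Capitals mark ACGTG on either strand (CACGT on the other), which is the core of the site of hypoxia-inducible factors, known regulators of glycolytic genes, and GAANNTTC, a pair of facing heat shock element units. ACGTG overlaps the E-box CACGTG, which counts once on each strand.
GAPDH: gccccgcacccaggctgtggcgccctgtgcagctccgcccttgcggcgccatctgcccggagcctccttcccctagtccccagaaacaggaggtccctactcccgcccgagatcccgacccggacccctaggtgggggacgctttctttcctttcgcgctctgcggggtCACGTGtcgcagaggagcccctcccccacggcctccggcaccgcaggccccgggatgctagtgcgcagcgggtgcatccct
PGK1: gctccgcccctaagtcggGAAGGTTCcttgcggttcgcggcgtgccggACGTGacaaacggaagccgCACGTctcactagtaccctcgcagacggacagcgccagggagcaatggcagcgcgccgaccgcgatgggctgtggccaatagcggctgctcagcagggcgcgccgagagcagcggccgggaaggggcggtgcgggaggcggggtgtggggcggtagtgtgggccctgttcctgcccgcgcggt
ACGTG was found in 8 of the 14 promoter windows of the 10 genes (57.1%), in GAPDH, LDHA, PGK1, ALDOA, TPI1 and GPI, and in 18.5% of all 35116 windows of the same length. GAANNTTC was found in 1 of the 14 (7.14%), that of PGK1, and in 5.78% of all windows. A match of letters is a description and no site of binding was measured.

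Depth was 1419968 to 2629957 counts in naive inputs, 1718517 to 3276410 in naive pulldowns, 4540426 to 7782943 in stress inputs and 707356 to 1221213 in stress pulldowns. The 10 most abundant IDs took 68.6% to 75.3% of counts in naive inputs and 55.6% to 70.0% in naive pulldowns, against 3.43% to 7.80% and 25.6% to 44.1% in the stress table. The 10 glycolytic mRNAs together took 0.183% to 0.348% of counts in naive inputs and 0.195% to 0.370% in naive pulldowns. In the stress table their share was 0.908% to 1.25% in inputs and 0.491% to 0.875% in pulldowns. A single mRNA had 53 to 2242 counts in a naive input, 46 to 2972 in a naive pulldown, 520 to 27220 in a stress input and 49 to 2754 in a stress pulldown. Levels below are CPM, the usual depth-normalised read counts, scaled by the trimmed mean of M-values (TMM), and differences are log2 fold changes ± SE from edgeR's quasi-likelihood test, called at an adjusted p under 0.05. Transcript lengths were not used, so levels are set against each other only within a gene. In a bulk library, fewer cells that carry an RNA and less of it per cell cannot be told apart.

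**Figure D1:**
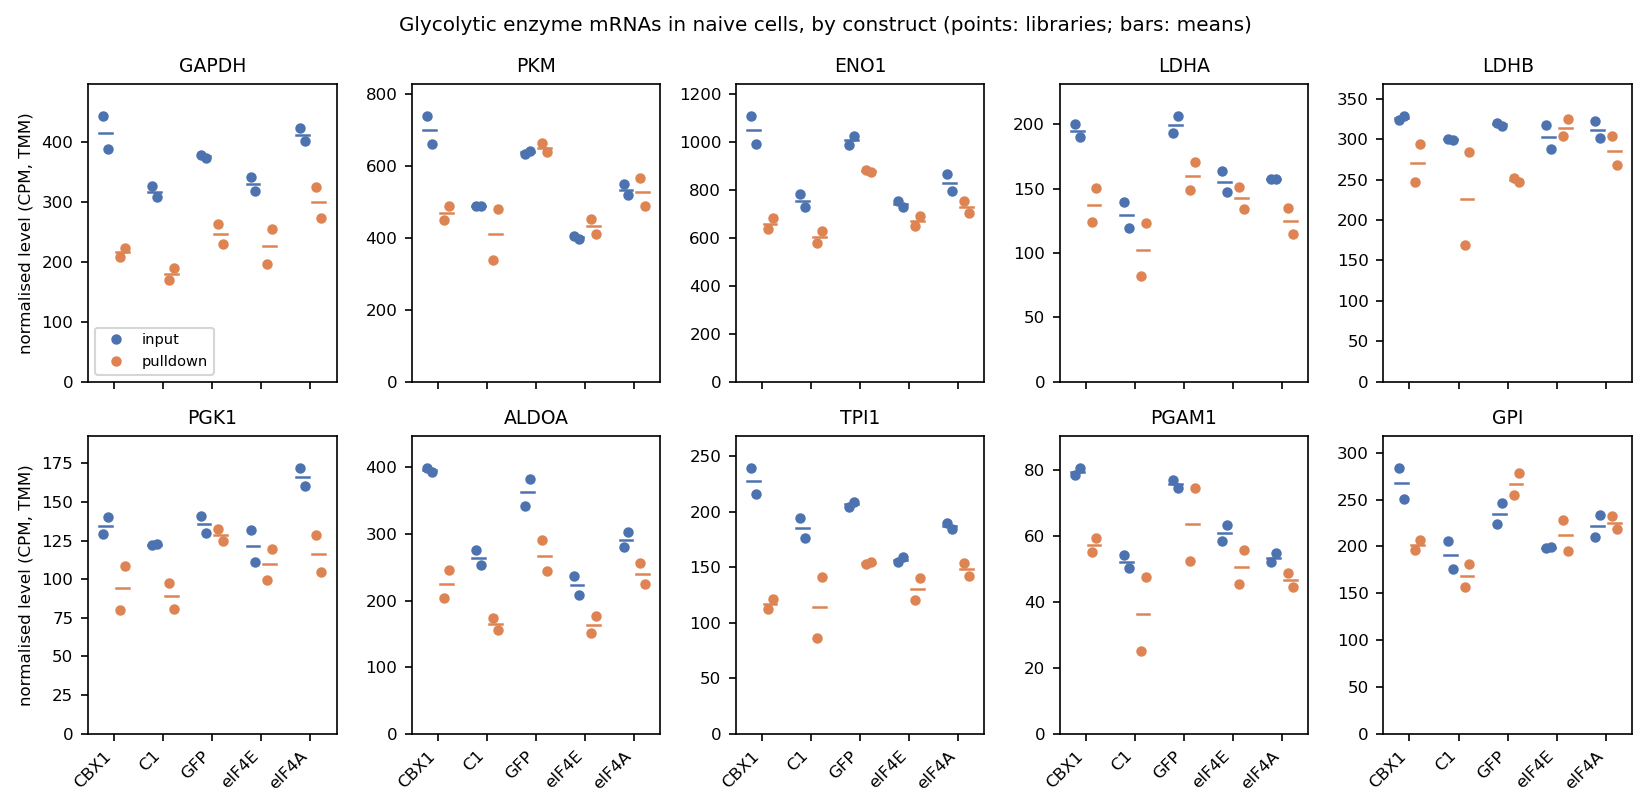
Level of each mRNA (vertical axis, CPM scaled by TMM, from 0) in the naive libraries by construct (horizontal axis); points are libraries, bars the means of 2, blue for input and orange for pulldown. With CBX1, every pulldown point lies below both input points in all 10 panels; with GFP, the pulldown points of GPI lie above its input points.

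In cells with APEX-CBX1, the nuclear bait, 5 of the 10 mRNAs fell in the pulldown against the input and none rose. They were ALDOA and TPI1 of the upper path and GAPDH, ENO1 and PKM of the lower path. Of all 12427 IDs tested, 2.31% were called lower in that comparison, and of the 864 IDs whose mean level lay within the range of the 10 mRNAs, 16.2% were. GAPDH read 442 and 388 CPM in the inputs and 209 and 224 CPM in the pulldowns, a log2 fold change of -0.94 ± 0.13 (edgeR, adjusted p = 6.74e-05, n = 2 and 2). TPI1 read 239 and 215 CPM in the inputs and 112 and 121 CPM in the pulldowns (-0.96 ± 0.16, edgeR adjusted p = 0.00037). For both mRNAs the pulldown level was thus 1.92-fold and 1.95-fold lower, with no overlap between libraries. ALDOA, the aldolase, read 399 and 392 CPM in the inputs and 204 and 245 CPM in the pulldowns (-0.82 ± 0.13, edgeR adjusted p = 0.000366). ENO1 read 1107 and 989.8 CPM against 638 and 682 CPM (-0.67 ± 0.11, edgeR adjusted p = 0.000468). PKM, the last enzyme before lactate, read 738 and 662 CPM against 451 and 489.5 CPM (-0.57 ± 0.13, edgeR adjusted p = 0.00937).

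The other 5 mRNAs did not pass the test with CBX1, with log2 fold changes of -0.52 ± 0.16 for PGK1, -0.51 ± 0.16 for LDHA, -0.48 ± 0.21 for PGAM1, -0.41 ± 0.13 for GPI and -0.27 ± 0.15 for LDHB. LDHB, the subunit that favours the return of lactate to pyruvate, lay nearest to 0. It read 323 and 328 CPM in the inputs and 247 and 294 CPM in the pulldowns. In all 10 mRNAs both pulldown levels lay below both input levels, which was so for 24.7% of all tested IDs. The call for PKM was lost without input library 1 (-0.50, edgeR adjusted p = 0.232) and without pulldown library 1 (-0.51, edgeR adjusted p = 0.236), and the other 4 calls held with each of the 4 libraries left out. Under library size in place of TMM the calls for GAPDH and TPI1 held, at -0.55 and -0.57.

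With C1-APEX, 3 of the 10 fell and none rose: GAPDH, ALDOA and TPI1, which had also fallen with CBX1. Of all tested IDs 3.56% were called lower, and 16.3% of those at the level of the 10 mRNAs. GAPDH read 325 and 308 CPM in the inputs and 169 and 189 CPM in the pulldowns (-0.82 ± 0.14, edgeR adjusted p = 0.000584). ALDOA read 276 and 253 CPM against 173 and 156 CPM (-0.68 ± 0.14, edgeR adjusted p = 0.00326). TPI1, the isomerase that follows it, read 194 and 176 CPM against 86.2 and 141 CPM (-0.69 ± 0.16, edgeR adjusted p = 0.0101). No pulldown level of these 3 reached an input level. The other 7 lay between -0.18 ± 0.13 for GPI and -0.50 ± 0.23 for PGAM1, and 8 of the 10 showed no overlap of the libraries, with 23.4% of all tested IDs lower in this way.

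The C1 pulldowns differed more from each other than the replicates of other naive groups, with a correlation of log2 CPM across IDs of 0.761 and a difference of up to 0.89 on the log2 scale among the 10 mRNAs. PGAM1 is the widest example, at 25.2 CPM in pulldown 1 and 47.6 CPM in pulldown 2. LDHB, at 169 and 284 CPM, and TPI1 were spread in the same direction. Without pulldown 2, 8 mRNAs were called lower, while the number of all tested IDs called lower went from 443 to 1963. Without pulldown 1, 2 were called, GAPDH and ALDOA, with 325 of all IDs. Without input 1 the call for GAPDH alone held, at -0.81, with 103 of all IDs called lower. Those for ALDOA (-0.65, edgeR adjusted p = 0.0706) and TPI1 (-0.65, edgeR adjusted p = 0.136) did not. TPI1 was also not called without pulldown 1 (-0.41, edgeR adjusted p = 0.114). In a fit of only the C1 libraries none of the 10 was called, and 10 of all IDs were called lower.

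With APEX-GFP, the construct without a bait, GAPDH fell and no other of the 10 passed the test. Of all tested IDs 2.09% were called lower, and 12.2% of those at the level of the 10 mRNAs. GAPDH read 378 and 373 CPM in the inputs and 263 and 229.7 CPM in the pulldowns (-0.61 ± 0.13, edgeR adjusted p = 0.00518). Both pulldown levels were below both inputs. ALDOA lay at -0.44 ± 0.13 (edgeR adjusted p = 0.0529) and TPI1 at -0.42 ± 0.15 (edgeR adjusted p = 0.14). PKM read 634 and 641 CPM in the inputs and 662 and 639 CPM in the pulldowns (0.03 ± 0.13). ENO1 read 987 and 1027 CPM against 884 and 874 CPM (-0.20 ± 0.11, edgeR adjusted p = 0.386). GPI, the first enzyme of this series of steps, was the one mRNA with both pulldown levels above both inputs, at 255 and 278 CPM against 224 and 246 CPM (0.18 ± 0.13, edgeR adjusted p = 0.51). Among all tested IDs 24.6% were higher without overlap, and 25.5% lower, as were 6 of the 10. The call for GAPDH was lost without input 1 (-0.61, edgeR adjusted p = 0.0763), input 2 (-0.62, edgeR adjusted p = 0.0552) or pulldown 2 (-0.53, edgeR adjusted p = 0.128).

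With APEX-eIF4E, the cap-binding bait, 1.29% of all tested IDs were called lower, and 6.94% of those at the level of the 10 mRNAs. GAPDH was again the one mRNA of the 10 called. It read 340.5 and 318 CPM in the inputs and 196 and 255 CPM in the pulldowns (-0.54 ± 0.13, edgeR adjusted p = 0.0203), and its sign turned to 0.33 under library size in place of TMM. The call was lost without input 1 (-0.49, edgeR adjusted p = 0.248), input 2 (-0.57, edgeR adjusted p = 0.17) or pulldown 1 (-0.36, edgeR adjusted p = 0.618). PKM read 404 and 398 CPM in the inputs and 453 and 411 CPM in the pulldowns (0.11 ± 0.13, edgeR adjusted p = 0.81), and was the only one of the 10 with both pulldowns above both inputs, as in 24% of all tested IDs. ENO1 read 754 and 729.9 CPM against 650.1 and 692 CPM (-0.14 ± 0.11, edgeR adjusted p = 0.658). Both pulldown levels lay below both inputs for 5 of the 10, GAPDH, ENO1, ALDOA, TPI1 and PGAM1, and for 21.6% of all tested IDs.

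With APEX-eIF4A in naive cells none of the 10 was called by edgeR. Before adjustment 5 had a p under 0.05, as had 1464 of all 12427 tested IDs, of which edgeR called 1.02% lower. Of the IDs at the level of the 10 mRNAs, edgeR called 7.06% lower. By DESeq2 1 of the 10 was called, GAPDH (-0.48, adjusted p = 0.0187), with 136 of all IDs lower and 138 higher. GAPDH read 422 and 401 CPM in the inputs and 324 and 273 CPM in the pulldowns (-0.46 ± 0.13, edgeR adjusted p = 0.061). PKM read 549.9 and 518 CPM against 566 and 489 CPM, which overlap (-0.02 ± 0.13). ENO1 read 866 and 794 CPM against 752 and 704 CPM (-0.19 ± 0.11, edgeR adjusted p = 0.565). PGK1, which makes the first ATP of the path, had the lowest value of the 10 here, -0.50 ± 0.16 (edgeR adjusted p = 0.105), at 172 and 160.4 CPM in the inputs and 129 and 104 CPM in the pulldowns. For 7 of the 10 both pulldowns lay below both inputs, and for 22.8% of all tested IDs.

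**Figure D2:**
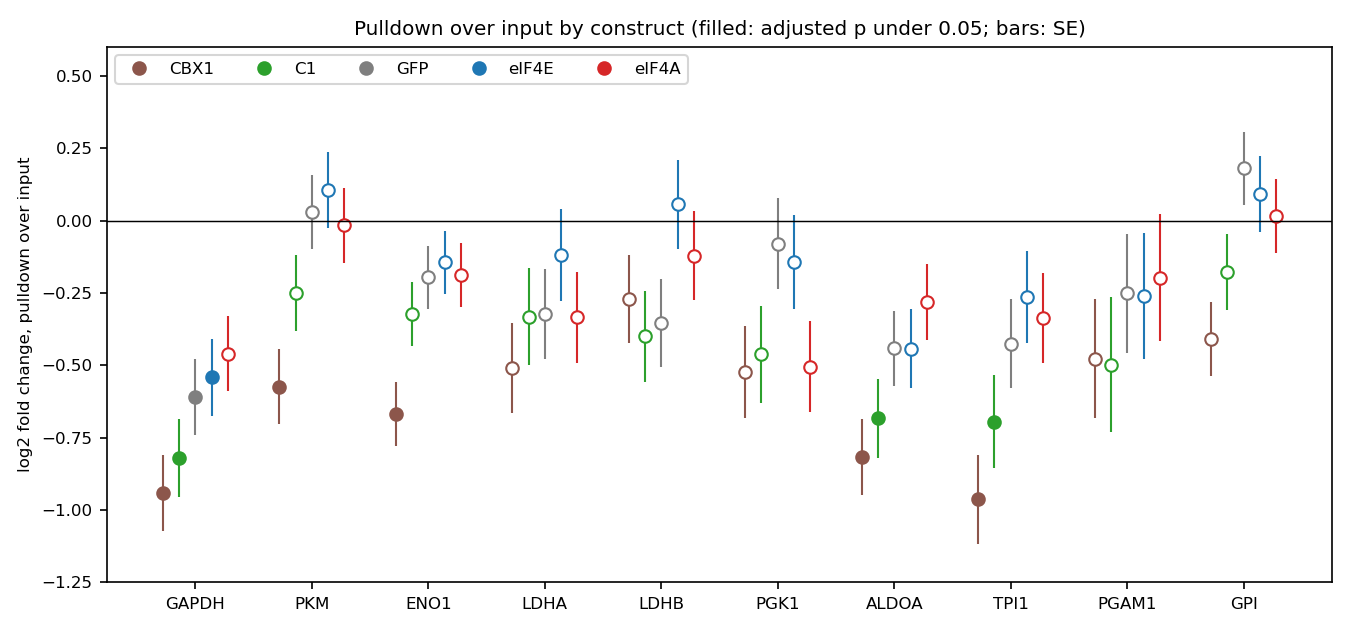
Log2 fold change of pulldown over input (vertical axis, ± SE) of each mRNA (horizontal axis) for the 5 naive constructs; filled points were called at an adjusted p under 0.05, open points were not. GAPDH is filled for CBX1, C1, GFP and eIF4E and open for eIF4A, at -0.46; PKM and GPI lie near or above 0 for GFP and eIF4E.

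Over the 10 mRNAs the median log2 fold change of pulldown over input was -0.55 with CBX1, -0.43 with C1, -0.29 with GFP, -0.14 with eIF4E and -0.24 with eIF4A, where the medians over all tested IDs were 0.02, 0.01, 0.00, 0.02 and 0.02. Values were below 0 for 10, 10, 8, 7 and 9 of the 10. Among the 864 IDs at the level of the 10 mRNAs the medians were -0.16, -0.11, -0.02, 0.03 and -0.01. Scaled by plain library size, the median of all tested IDs moved to 0.41 with CBX1, 0.18 with C1, 0.24 with GFP, 0.89 with eIF4E and 0.82 with eIF4A. The median of the 10 then stood at -0.17, -0.26, -0.05, 0.72 and 0.57, so that its direction turned for eIF4E and eIF4A. Relative to the median of all tested IDs it stood at -0.58, -0.44, -0.29, -0.17 and -0.26 under library size and at -0.57, -0.44, -0.29, -0.16 and -0.26 under TMM. A change of scaling moves all IDs of a comparison by about the same amount, so these relative values agree by construction.

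**Figure D3:**
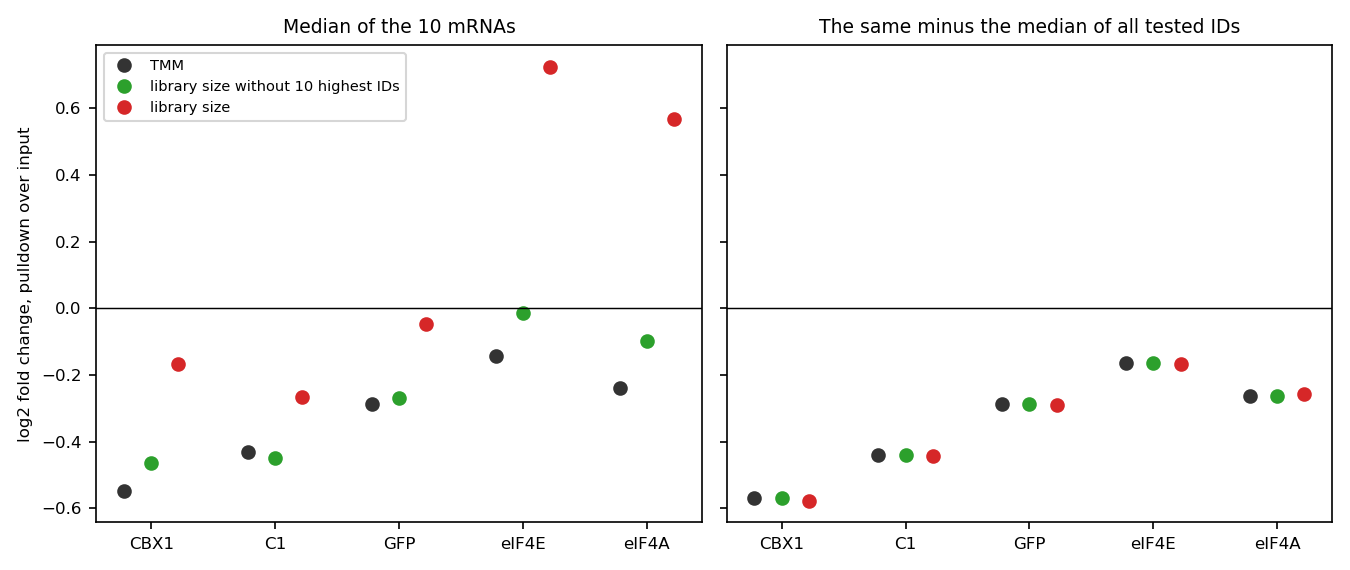
Median log2 fold change of pulldown over input of the 10 mRNAs (left; vertical axis) and the same minus the median of all tested IDs (right), by construct (horizontal axis), under TMM, library size without the 10 highest IDs, and library size. On the left the eIF4E median runs from -0.14 under TMM to 0.72 under library size; on the right its values are -0.16 and -0.17.

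Among themselves the 10 mRNAs kept a partly similar order from construct to construct, with Spearman's rho from 0.515 to 0.891 in the 10 pairs of constructs. Pearson's r between the pulldown-over-input values of 2 constructs over the 10 genes was 0.515 to 0.909 in the 10 pairs, with a median of 0.739; these pairs share no library but share the sequencing table and the genes' base composition and length, and 10 genes are not independent replicates. Ranked from lowest to highest within each construct, GAPDH had a mean rank of 1.4, TPI1 2.4 and ALDOA 3. At the other end stood PKM at 8.4, though at 5 with CBX1, and GPI at 9.6. Ranks between these ends moved more: PGK1 ranked 8 with GFP and 1 with eIF4A, and LDHB 4 with GFP and 10 with CBX1. GPI thus lay highest or next to highest in every construct.

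Which bait was used was then compared after correction for the input of each construct. None of the 10 mRNAs was called in any of 6 such comparisons with edgeR. CBX1 minus GFP called 0.161% of all tested IDs, CBX1 minus C1 0.0644%, and the differences of C1, eIF4E and eIF4A from GFP and of eIF4A from eIF4E 0%, where 1045, 472, 411 and 251 IDs had an unadjusted p under 0.05. For CBX1 minus GFP, 912 of all tested IDs had an unadjusted p under 0.05 and 4 of the 10, PKM (-0.60 ± 0.18, edgeR adjusted p = 0.295), GPI (-0.59 ± 0.18, edgeR adjusted p = 0.297), ENO1 (-0.47 ± 0.15, edgeR adjusted p = 0.362) and TPI1 (-0.54 ± 0.22, edgeR adjusted p = 0.558). DESeq2 called 3 of them, PKM at -0.61, GPI at -0.60 and ENO1 at -0.48, among 25 of all IDs lower and 19 higher. GAPDH, with the lowest adjusted p against its own CBX1 input, differed between CBX1 and GFP by -0.33 ± 0.18 (95% interval -0.71 to 0.04).

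In C1 minus GFP no mRNA of the 10 had an unadjusted p under 0.05, and the 95% intervals of the 10 lay between -0.88 and 0.45. Values ran from -0.38 ± 0.23 for PGK1 to -0.01 ± 0.23 for LDHA. Without C1 pulldown 2, PKM (-0.59) and TPI1 (-0.71) were called lower in that comparison, among 770 of all IDs. In eIF4E minus GFP LDHB had the largest value, 0.41 ± 0.22, and in eIF4A minus GFP PGK1, -0.43 ± 0.22, both with an adjusted p of 1 by edgeR. The intervals of the 10 lay between -0.62 and 0.86 in the former and between -0.88 and 0.68 in the latter. Between the baits of the initiation complex, eIF4A minus eIF4E, values ran from -0.36 for PGK1 to 0.16 for ALDOA, with intervals between -0.82 and 0.70. In CBX1 minus C1, ENO1 had an unadjusted p of 0.0346, as 1233 of all IDs had one under 0.05 (-0.35 ± 0.16, edgeR adjusted p = 0.451). Without C1 pulldown 2, LDHB was called there, at 0.60, among 853 of all IDs higher. DESeq2 called none of the 10 in these 5 comparisons. A missed threshold does not show that the constructs act alike on these mRNAs. CBX1, C1, eIF4E and eIF4A are each set against the same GFP libraries, so these values are not independent of one another.

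The inputs themselves differed between cells with different constructs. In eIF4E inputs against GFP inputs, 3 of the 10 were lower and none higher, ALDOA, PKM and ENO1, where 1.44% of all tested IDs and 10.1% of those at the level of the 10 were called lower. ALDOA read 237 and 208 CPM in eIF4E inputs and 343 and 382 CPM in GFP inputs (-0.70 ± 0.13, edgeR adjusted p = 0.00285). PKM read 404 and 398 CPM against 634 and 641 CPM (-0.67 ± 0.13, edgeR adjusted p = 0.00398). ENO1 read 754 and 729.9 CPM against 987 and 1027 CPM (-0.44 ± 0.11, edgeR adjusted p = 0.0257). The libraries of the groups did not overlap for these 3, as for 8 of the 10 in all, with 26.8% of all tested IDs lower in this way. All 3 calls were lost without eIF4E input 2 or without GFP input 2, 1 (ALDOA, -0.81) was left without eIF4E input 1, and 2 (PKM, -0.69, and ALDOA, -0.80) without GFP input 1. In these 4 fits 36 to 56 of all IDs were called lower, against 179 with every library.

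None of the 10 was called in the other inputs against GFP inputs, where edgeR called 0.0885% of tested IDs for CBX1, 0.33% for C1 and 0.579% for eIF4A. With C1, 6 of the 10 and 1047 of all tested IDs had an unadjusted p under 0.05, and all 10 lay below the GFP inputs without overlap, with 23.5% of all IDs lower in this way. DESeq2 called 3 of them, LDHA at -0.61, ALDOA at -0.44 and ENO1 at -0.40, among 57 of all IDs lower. LDHA, the subunit that favours lactate, read 139.7 and 119.6 CPM in C1 inputs against 193 and 206 CPM in GFP inputs (-0.62 ± 0.16, edgeR adjusted p = 0.104). GAPDH lay at -0.25 ± 0.13 with C1, 0.14 ± 0.13 with CBX1 and 0.13 ± 0.13 with eIF4A. With eIF4A, 4 of the 10 and 1074 of all IDs had a p under 0.05 before adjustment, and by DESeq2 0 of the 10 were called. With CBX1, 0 of the 10 had an unadjusted p under 0.05, against 569 of all IDs, DESeq2 called 0, and the values ran from -0.04 for LDHA to 0.19 for GPI. Medians over the 10 were 0.10 with CBX1, -0.34 with C1, -0.34 with eIF4E and -0.20 with eIF4A. Among the 864 IDs at the level of the 10 mRNAs the medians were 0.07, -0.10, -0.08 and -0.10. How far construct and culture or library preparation each bear on these differences cannot be told apart.

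In the stress table none of the 10 was called in any of the 10 comparisons. For heat shock, T20 against T0, edgeR called 0.042% of all tested IDs in inputs, 0.144% in pulldowns and 0% after input correction. The deviations of same-numbered T0 and T20 inputs correlated at -0.699, which this test leaves in the spread. An input fit with the T0 numbers crossed, chosen after seeing the data, called many more IDs and is given with the processing alternatives. The median over the 10 was -0.36 in inputs and -0.46 in pulldowns, with 0.01 and 0.09 over all tested IDs, and -0.25 and -0.08 over the 1239 IDs at the level of the 10. All 10 values were below 0 in inputs and 9 in pulldowns, where library size in place of TMM left 5. After input correction the median was -0.09. An unadjusted p under 0.05 was reached by 1 of the 10 in inputs, 2 in pulldowns and 0 after input correction, and DESeq2 called 0, 1 and 0. Over all tested IDs 228, 2858 and 1226 had an unadjusted p under 0.05.

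GAPDH read 2085 and 2249 CPM in T0 inputs and 2041 and 1619 CPM in T20 inputs (-0.24 ± 0.24). In pulldowns it read 1496 and 1407 CPM at T0 and 1349.5 and 875 CPM at T20 (-0.38 ± 0.24, edgeR adjusted p = 0.406). In both fractions its T20 libraries lay below its T0 libraries. PKM read 1461 and 2249 CPM in T0 inputs and 1481 and 1123 CPM in T20 inputs, which overlap (-0.51 ± 0.27). Its pulldowns read 1099 and 1491 CPM at T0 and 787 and 1016 CPM at T20 (-0.52 ± 0.27, edgeR adjusted p = 0.314). ENO1, enolase, read 2886 and 3248 CPM in T0 inputs and 2704 and 2167 CPM in T20 inputs (-0.33 ± 0.22). Its pulldowns read 2180.4 and 2865 CPM at T0 and 1551 and 1716 CPM at T20 (-0.63 ± 0.23, edgeR adjusted p = 0.189). T20 lay below T0 without overlap for 5 of the 10 in inputs (17% of all tested IDs) and for 7 in pulldowns (12.8%), and GAPDH, ENO1 and PGK1 did so in both.

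PGK1 had the largest heat-shock difference among the 10 and is described in full because its values were seen. Its inputs read 353 and 395 CPM at T0, 353 CPM at T4 and 234 and 205 CPM at T20 (-0.77 ± 0.36, unadjusted p = 0.0426, edgeR adjusted p = 1). Its pulldowns read 317 and 401 CPM at T0, 322 CPM at T4 and 131 and 114 CPM at T20 (-1.55 ± 0.37, unadjusted p = 0.000422, edgeR adjusted p = 0.092). T20 was thus below T0 and T4 in both fractions, 2.93-fold below T0 in pulldowns and 1.71-fold in inputs by the fitted values. DESeq2 called the pulldown difference (-1.57, adjusted p = 0.00435), among 480 of all IDs lower and 663 higher. So did edgeR without the count filter (-1.58, adjusted p = 0.0422), among 61 lower and 80 higher. Input-corrected, the difference was -0.78 ± 0.51 with a 95% interval of -1.84 to 0.28 (edgeR adjusted p = 0.749).

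**Figure D4:**
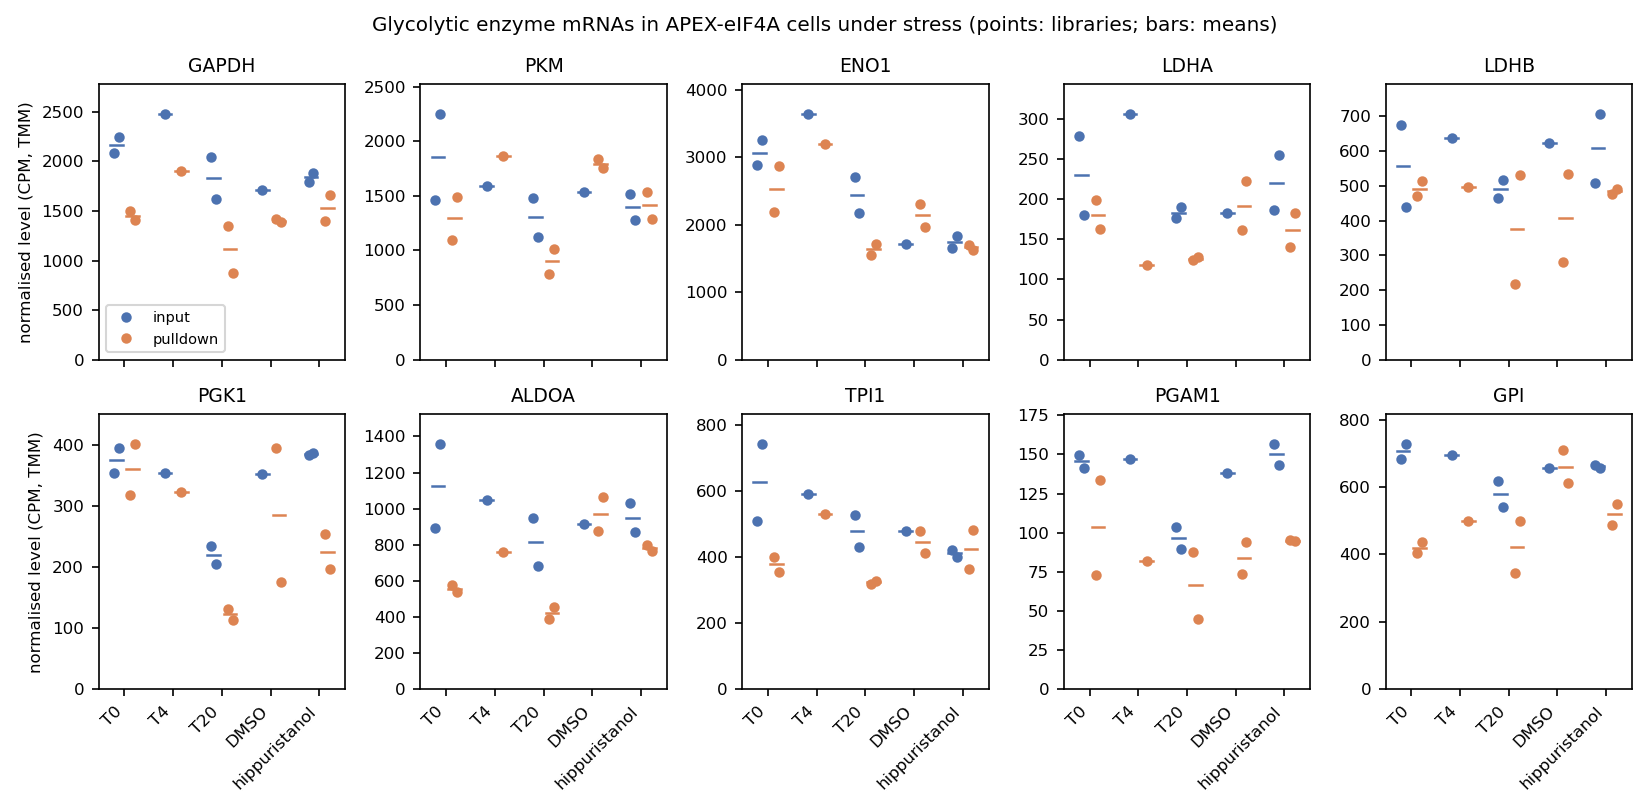
Level of each mRNA (vertical axis, CPM scaled by TMM, from 0) in APEX-eIF4A cells (horizontal axis: T0, T4, T20, DMSO, hippuristanol); points are libraries, bars group means, blue for input and orange for pulldown, with 1 library for each T4 group and for the DMSO input. The PGK1 pulldowns at T20, 131 and 114 CPM, lie below every other PGK1 point.

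Hippuristanol was compared with DMSO to ask whether an inhibited eIF4A changes which mRNAs lie near it. In the pulldowns edgeR called 0% of tested IDs, with 2394 at an unadjusted p under 0.05 and 0 of the 10 among them, and DESeq2 called 0 of the 10. GAPDH read 1404 and 1658 CPM with hippuristanol and 1417 and 1385 CPM with DMSO, which overlap (0.13 ± 0.24). PKM read 1536 and 1290.0 CPM against 1836 and 1751 CPM (-0.34 ± 0.27, edgeR adjusted p = 0.585). ENO1 read 1697 and 1629 CPM against 2311 and 1970.3 CPM (-0.36 ± 0.23, edgeR adjusted p = 0.464). PKM, ENO1, ALDOA and GPI lay lower without overlap (21.6% of all tested IDs did) and PGAM1 higher (18.8%). The median over the 10 was -0.28, against 0.05 over all tested IDs and -0.03 over those at their level. PGK1 varied between the DMSO pulldowns themselves, at 394 and 176 CPM, more than between treatments. In the inputs the values ran from -0.22 for TPI1 to 0.27 for LDHA around a median of 0.04, edgeR called 0% of tested IDs with 3 at an unadjusted p under 0.05, and 0 of the 10 had one. DESeq2 also called 0 of the 10 there. After input correction edgeR called 0% of tested IDs (919 at an unadjusted p under 0.05), and 0 of the 10 by either measure or by DESeq2, with values from -0.52 for LDHA to 0.28 for LDHB. The single DMSO input was assumed to vary like the other groups, and the hippuristanol inputs carry a label of heat shock beside their title.

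Pulldown over input within each stress group gave no call among the 10 either, where edgeR called 0.36% of tested IDs at T0, 0.372% at T20, 0.252% with hippuristanol and 0.3% with DMSO. An unadjusted p under 0.05 was reached by 4 of the 10 at T0, 4 at T20, 1 with hippuristanol and 0 with DMSO, against 1789, 2194, 960 and 2157 of all 16678 IDs, and DESeq2 called 0 of the 10 in each. ALDOA had the lowest value at T0, -1.01 ± 0.28 (edgeR adjusted p = 0.18), and at T20, -0.95 ± 0.28 (edgeR adjusted p = 0.2), with 895 and 1360 CPM in T0 inputs and 579 and 538 CPM in T0 pulldowns. Its libraries did not overlap there, as those of 6 of the 10 did not, with 42.6% of all tested IDs lower in this way. GAPDH lay at -0.58 ± 0.24 at T0, -0.72 ± 0.24 at T20, -0.26 ± 0.24 with hippuristanol and -0.29 ± 0.29 with DMSO. The medians over the 10 were -0.51, -0.55, -0.30 and -0.05, and those over all tested IDs -0.55, -0.29, -0.36 and -0.46. Over the 1239 IDs at the level of the 10 the medians were -0.32, -0.13, -0.11 and -0.13.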

How the data were processed

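RNA of 37 libraries of HEK293T cells was measured as reads per gene. The deposited values are raw counts per versioned Ensembl ID, made by the authors with cutadapt, HISAT2 and featureCounts on GRCh38, per the submitters' processing notes; the tools' versions, the strand setting and how multiply matching reads were counted are not given here. Samples were grouped by title, so hippuristanol inputs follow their title; a column name that occurs in the descriptions of 2 samples was taken for naive eIF4A input 2 and, in the stress table, for the DMSO input.

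Each table was fitted on its own with edgeR 4.0.16 (R 4.3.3): low counts were filtered with filterByExpr, scaling was TMM, and the quasi-likelihood F test, 2-sided, used robust dispersions and 1 mean per group. For each ID, all groups of a table shared 1 estimate of the spread. P-values were adjusted by Benjamini-Hochberg over all tested IDs in each of 25 comparisons. The step was tested on simulated data. The differences planted there were all larger than those of the 10 mRNAs called by this test, so it does not speak for differences of their size. SE is the log2 fold change divided by the root of F. The 10 mRNAs, the comparisons and the lists were chosen with earlier results of these data known. All 10 are named, and values per library are given for those called. Where fewer than 3 were called, GAPDH, PKM and ENO1 have such values for pulldown over input with GFP, eIF4E and naive eIF4A. The same holds for T20 over T0 in each fraction and for hippuristanol over DMSO pulldowns. Elsewhere values per library are given for few mRNAs or none. Lists of other pathway genes, chaperones and cell type markers were not applied, since no table used here pairs the files' IDs with symbols beyond the 10, so the cell type was not checked by markers. Alternatives were other scalings, each library left out in turn, a replicate block, fits of only the libraries compared, omission of the count filter or of the input correction, and DESeq2 1.42.0. T4 libraries enter the stress fit and no comparison. Same-numbered inputs and pulldowns deviated with correlations of -0.07 to 0.14 in 8 pairs of groups. Between stress inputs they correlated at -0.699 for T0 with T20, -0.787 for T0 with hippuristanol and 0.636 for T20 with hippuristanol across 4369 IDs, so T0 libraries deviate with those of the other number. Numbers were not taken as pairs; T20 over T0 inputs were also fitted with those of T0 crossed, an alternative chosen after seeing the data.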

Additional observations from a re-analysis of the deposited data

Results flagged for a closer look

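The T4 libraries enter no comparison because each fraction has 1. In the T4 pulldown the 10 mRNAs summed to 9769 CPM, above both T0 pulldowns, whose mean was 7762 ± 768 CPM (SD, n = 2). Of the 10, 6 lay above both T0 pulldowns, as did 28.6% of all 16678 tested IDs: GAPDH at 1901 CPM, PKM at 1865 CPM, ENO1 at 3194 CPM, ALDOA at 759 CPM, TPI1 at 529.8 CPM and GPI at 501 CPM. In the T4 input 3 of the 10 lay above both T0 inputs, which 30.1% of all tested IDs did, GAPDH at 2479 CPM, ENO1 at 3640 CPM and LDHA at 306 CPM. LDHA in the T4 pulldown, at 118 CPM, lay below both T0 pulldowns, which read 199 and 162 CPM, as did 22.6% of all tested IDs. With 1 library there is no test of these differences.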

How the results depend on the processing

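Of the alternative values, 242 counts of called mRNAs were classed as kept and 43 as moved. A count above 0 was kept if it stayed within 1.5 times. In most comparisons the count was 0, which was kept only if it stayed 0, so most of the 242 are 0 in both fits. Of the values of single mRNAs, 341 kept the call or the lack of one, 30 lost the call, 9 gained it and 4 reversed. A reversal was counted only where the main or the alternative value was called, so the 341 include uncalled values whose sign turned. GAPDH with eIF4A lay above 0 under library size, and PKM with eIF4A ran from -0.11 to 0.10 with a library left out. All 4 reversals counted in this way came under library size in place of TMM: GAPDH 0.33 and ENO1 0.72 with eIF4E, PKM 0.79 and ENO1 0.63 with eIF4A. Library size called 2 of the 10 with CBX1, 0 with GFP, 9 higher with eIF4E and 8 higher with eIF4A, where it called 4462 and 3886 of all 12427 IDs higher, 1 in eIF4E minus GFP, 1, 7 and 5 in C1, eIF4E and eIF4A inputs and 3 at T0. Without the 10 highest IDs, or with no count filter, 0 were called with eIF4E; no filter also called 1 in C1 inputs and 1 in T20 pulldowns. Fitting only the libraries compared called 8 with CBX1, 0 with C1, 4 with GFP and 2 with eIF4A, and 5, 5 and 2 in C1, eIF4E and eIF4A inputs. DESeq2 called 2 with GFP, 1 with eIF4A, 3 in CBX1 minus GFP, 3 in C1 inputs and 1 in T20 pulldowns. Where no number of all IDs called stands beside such a count, the count cannot show whether the 10 mRNAs differ from other IDs. Without input correction 8, 3, 1 and 1 were called in C1 minus GFP, eIF4E minus GFP, eIF4A minus eIF4E and CBX1 minus C1, where 424, 337, 124 and 571 of all IDs were called in the same direction. Leaving out a library gave 4 to 6 calls with CBX1, 1 to 8 with C1, 0 to 1 with GFP and with eIF4E, 0 to 2 in C1 minus GFP, 0 to 1 in CBX1 minus C1 and 0 to 2 in eIF4E inputs. The replicate block, where numbers share no stated pairing, called 5, 3, 1, 1 and 0 of the 10 with CBX1, C1, GFP, eIF4E and eIF4A, the same counts as without it, and changed no count by over 1.5 times. Crossing the numbers of T0 in a block fit of only the T0 and T20 inputs, chosen after seeing the data, called 2 of the 10 lower, with 624 of all IDs lower and 1445 higher. Fits that leave out libraries have fewer samples; beyond that the cause was not tested. Counts of 46 to 2972 per mRNA in naive pulldowns limit the precision, most for PGAM1, whose SEs were the widest.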
